A study of Mus musculus with 36 samples.

Results

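The cytosolic ribosomal proteins are the protein building blocks of the ribosomes that translate nuclear messages. Members were all probe sets listed under exactly 1 gene symbol of the form Rpl or Rps followed by a number, or under Rpsa, Rplp0, Rplp1 or Rplp2. Kinases of the Rps6k family were left out. This gave 95 probe sets for 43 genes among 45137 probe sets in all, with 91 on array A and 4 on array B. Probe sets with 1 symbol covered 18193 genes. Another 12 probe sets for 8 genes carried related symbols, such as Rps27l, and were kept apart. The rule used names only and no measured value, but the members were chosen with earlier results of these data known.

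Total RNA of mesenteric lymph nodes from mice was hybridised to 2 kinds of Affymetrix array, named here A and B. The mice had received PBS (phosphate-buffered saline, day 0) or soluble lymphotoxin-beta receptor, which acts as a decoy for that receptor's ligands, for 1, 2, 3, 27 or 35 days. There were 6 groups of 3 samples per array, 36 measurements in all. The labels give no genotype, strain, age or dose, and do not say whether the samples of a group are separate mice, so the p-values describe only the spread among samples, which may be technical. PBS was described at day 0 alone, so day of harvest and treatment cannot be told apart. The deposited values were intensities, and the median of an array was 272.8 to 299.5 units for array A and 149.8 to 165.2 for array B. Of 11 lymph node marker genes, 8 had a tested probe set of their own on array A, with PBS means from 218.2 to 5807 units.

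A mammalian ribosome has a small subunit, which reads the message, and a large subunit, which joins amino acids. Ribosomal protein genes are among the most highly expressed genes of most cells, lymphocytes included. Their messages are short and often begin with a run of pyrimidines, the TOP motif, through which growth signals control their translation. Many of their promoters hold binding sites of ETS factors. The numbers in their names follow, roughly, the order of the proteins from large to small.

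Promoter sequence is shown for 6 genes, chosen after their values were seen, because both kinds of motif stand beside genes that fell late and genes that did not pass the test. Each line runs 5′ to 3′ from 80 bases before to 20 bases after the RefSeq start (GRCm38.p6). Capitals mark CTCTTT, letters that can form part of a TOP run, or CCGGAAG, an ETS core, each searched on both strands. In Rps3a1 the marked AAAGAG, from base 3 of the transcript, is CTCTTT on the opposite strand, so it is no pyrimidine run of the message. Rpl35 lies at chr2:39005112-39005211 (minus strand), Rps10 at chr17:27635225-27635324 (minus), Rpl37 at chr15:5116533-5116632 (plus), Rps18 at chr17:33955646-33955745 (minus), Rps3a1 at chr3:86142649-86142748 (minus) and Rps6 at chr4:86857348-86857447 (minus).
Rpl35: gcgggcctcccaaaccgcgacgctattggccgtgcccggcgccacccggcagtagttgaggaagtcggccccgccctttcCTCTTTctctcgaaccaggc
Rps10: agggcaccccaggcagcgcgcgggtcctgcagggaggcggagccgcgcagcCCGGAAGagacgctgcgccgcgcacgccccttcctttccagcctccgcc
Rpl37: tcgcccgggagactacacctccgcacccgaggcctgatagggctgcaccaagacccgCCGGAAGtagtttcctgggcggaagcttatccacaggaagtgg
Rps18: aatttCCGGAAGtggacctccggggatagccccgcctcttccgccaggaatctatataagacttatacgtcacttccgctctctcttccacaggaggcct
Rps3a1: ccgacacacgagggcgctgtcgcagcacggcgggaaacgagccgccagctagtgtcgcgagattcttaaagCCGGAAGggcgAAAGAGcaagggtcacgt
Rps6: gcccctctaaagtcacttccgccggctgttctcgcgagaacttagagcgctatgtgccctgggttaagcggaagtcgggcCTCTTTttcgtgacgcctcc

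In Rpl35 and in Rps6 CTCTTT lay on the strand of the message and began at base 1 of the annotated transcript. Rps10 and Rps18 also open with a run of pyrimidines at base 1, left unmarked because it does not hold the letters CTCTTT. An unmarked start is therefore not a start without such a run. Promoters of 300 bases were found for 38 of the 43 genes, in 44 entries. CCGGAAG stood in 43.2% of these entries against 8.86% of all 32851 promoters, CTCTTT in 38.6% against 23% and AAGATGGC, a YY1 core, in 6.82% against 2.75%. No matches of different motifs shared a base. Among 34 genes tested on array A with an entry, 18 held the ETS core, and 12 of them had a probe set that fell in the late comparison described below, as had 8 of the 16 without it. For CTCTTT the counts were 9 of 15 with it and 11 of 19 without it. CTCTTT was counted on either strand and anywhere in the 300 bases, so these counts are not counts of TOP messages. These are matches of letters, not shown binding sites.

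A probe set was tested where it exceeded the median of its table on at least 3 of the 18 arrays. On array A 74 of 91 members passed, for 39 of 42 genes, while Rpl14, Rpl39 and Rps27 had none that did. On array B 3 of 4 passed, for Rpl22 and Rps3, and the one for Rps16 did not. A change was called where limma's adjusted p was under 0.05. Counts at an unadjusted p under 0.05 have no share of all probe sets beside them and are not read as results. Many members have processed pseudogenes or near-identical copies, and 34 of the 74 carry the suffix that Affymetrix gave to probe sets expected to cross-hybridise, so a probe set can read more than its own gene.

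During the first 3 days the ribosomal proteins showed no called change on array A. At day 1, 0 of 74 members were called by limma, beside 0.0164% of all tested probe sets, and 2 had an unadjusted p under 0.05. Day 2 also gave 0 calls, beside 0.114%, with 0 unadjusted, and day 3 gave 0, beside 0.556%, with 14 unadjusted. With array weights 1 member was called at day 2, higher. The median member changed by 0.04, 0.01 and -0.03 on the log2 scale at days 1, 2 and 3, against 0.02, 0.03 and 0.02 over all tested probe sets. At day 3 the samples spread. Averaged over members, log2 intensity relative to the PBS mean was -0.04, 0.04 and -0.15 in replicates 1, 2 and 3. Replicate 3 was also the lowest of the day 3 samples for the small subunits of the respiratory chain, at -0.34 against -0.04 and 0.04.

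After 27 and 35 days many ribosomal proteins were lower, each by a small amount, and none was called higher. At day 27, 14 of 74 members fell (18.9%), for 11 genes, beside 3.18% of all probe sets called, 2.6% lower and 0.58% higher. At day 35, 24 of 74 fell (32.4%), for 13 genes, beside 7.36% called, 5.58% lower and 1.77% higher. The median member changed by -0.17 at day 27 and -0.20 at day 35, while the medians of all tested probe sets were 0.05 and 0.03. These contrasts share the PBS samples. All 3 day 27 samples lay below all 3 PBS samples for 36 members (48.6%), against 9.69% of all probe sets, and the 3 day 35 samples did so for 38 (51.4%), against 13.2%. For 34 members all 6 late samples lay below every PBS sample, a count that was not made over all probe sets.

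The day 27 count leaned on single samples. It was 3 without PBS replicate 3, 4 without day 27 replicate 1, 5 without day 27 replicate 3 and 8 without either PBS replicate 1 or PBS replicate 2, and 20 without day 27 replicate 2. The day 35 count was 8 without day 35 replicate 2, 10 without PBS replicate 3 and 14 without PBS replicate 2.

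Days 27 and 35 were also set against days 1, 2 and 3, without the PBS samples. In this late against early contrast 41 of 74 members fell (55.4%), for 22 genes, and none rose, beside 15.4% of all probe sets called, 10.4% lower and 4.98% higher. The median member changed by -0.18, and that of all tested probe sets by 0.02. The count stayed between 35 and 44 when any 1 of the 15 arrays was left out. Between day 27 and day 35, 0 members and 0% of all probe sets were called by limma, and 0 members had an unadjusted p under 0.05. In bulk tissue, fewer cells rich in these messages and less message per cell cannot be told apart.

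**Figure D1:**
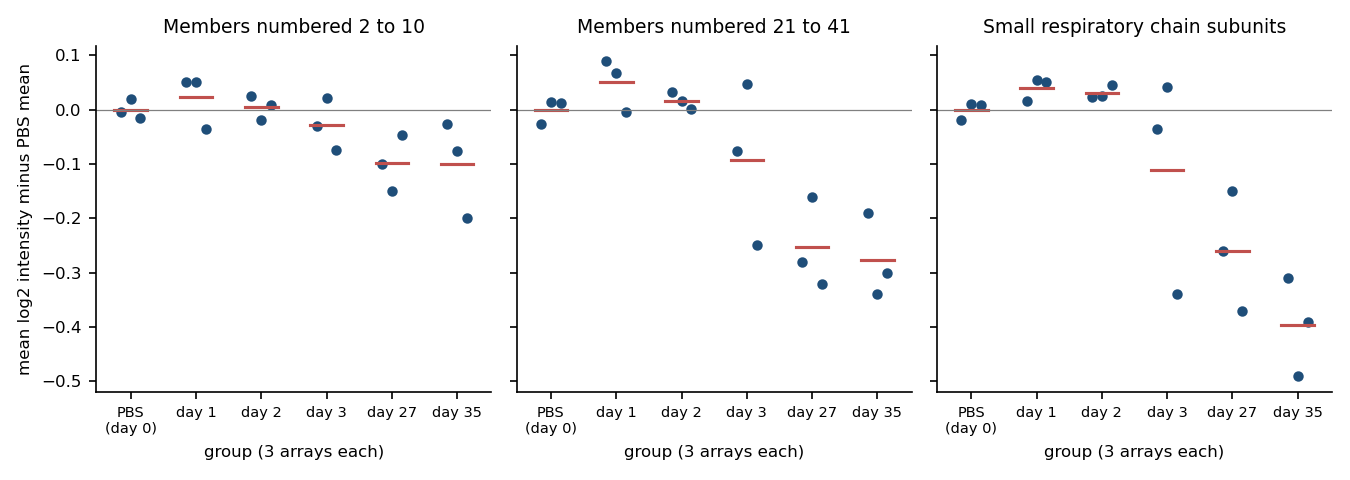
Mean log2 intensity minus the PBS mean on array A (vertical axis) in each of 3 samples per group (points, with the group mean as a bar), for members numbered 2 to 10, members numbered 21 to 41 and small respiratory chain subunits. The late samples lie at -0.16 to -0.34 for the high-numbered members, at -0.03 to -0.20 for the low-numbered ones and at -0.15 to -0.49 for the respiratory subunits.

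On array A a control measure of RNA length was above PBS in all late samples for Actb. For Gapdh this held at day 27 and not at day 35. The 3′ minus 5′ log2 signal of the Actb control probe sets, which rises when transcripts are shortened, was -0.03 to 0.06 in PBS samples, -0.07 to 0.13 at days 1 to 3, and 0.08 to 0.19 at days 27 and 35. The corresponding Gapdh value was -0.01 to 0.02, -0.04 to 0.11 and -0.03 to 0.11. It was 0.03 to 0.11 at day 27, above all PBS samples, and -0.03 to 0.09 at day 35. All Gapdh values of days 1 and 3 were above PBS too. For both controls the late samples overlapped with those of days 1 to 3. With the Actb value as a covariate, 1 member was called at day 27, 0 at day 35 and 2 late against early, while the medians were -0.15, -0.20 and -0.19. With the mean of the small respiratory subunits, a gene list and no measure of RNA, as a covariate, the counts were 2, 0 and 0 and the medians -0.06, -0.01 and -0.04. The share of all probe sets called with either covariate is not given, so these counts need not be particular to the members. All late samples had an Actb value above those of the PBS samples, so that covariate also follows the day. Both fits were added after seeing the data, and the part of RNA quality in the fall was not tested.

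Of the large subunit, 21 of 34 probe sets fell late against early, beside 10.4% of all probe sets. Rpl35, a protein near the exit of the peptide tunnel, had the lowest late against early value. Its intensity was 3448, 3751 and 3907 units in PBS samples, 2391, 2819 and 2531 at day 27, and 2639, 2230 and 2487 at day 35. All 6 late samples lay below the 3 PBS samples, and the day 35 mean was 0.662 of the PBS mean. By limma the log2 change was -0.52 at day 27 (SE 0.10, adjusted p = 0.0095) and -0.60 at day 35 (SE 0.10, adjusted p = 0.0024). The day 27 call was lost without day 27 replicate 1 or PBS replicate 3. All 5 tested Rpl35 probe sets fell late against early, by 0.38 to 0.47 on the log2 scale.

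Rpl27, another protein of the large subunit, stood at 1203, 1327 and 1329 units in PBS samples, at 876.8, 1033 and 811.6 at day 27 and at 961.2, 813.8 and 848.9 at day 35. The late samples did not overlap with PBS. The log2 change was -0.51 at day 27 (adjusted p = 0.017, limma) and -0.56 at day 35 (adjusted p = 0.0055, limma). The day 27 call was kept in 2 of 6 omissions of 1 array and lost without day 27 replicate 1 or 3 or PBS replicate 2 or 3. Its brightest probe set fell late against early by 0.28 and did not pass at day 35 (-0.26, adjusted p = 0.057).

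Rplp2 encodes an acidic protein of the stalk, which recruits elongation factors to the large subunit. It was 6888, 6748 and 6665 units in PBS samples, 5158, 5172 and 4734 at day 27, and 5406, 5152 and 5008 at day 35, with no overlap. The log2 change was -0.43 (adjusted p = 0.0027) at day 27 and -0.38 (adjusted p = 0.0036) at day 35, and both calls held with any 1 array left out. Rplp0, the stalk's base, read 5988 ± 247 units in PBS samples and 5637 ± 374 at day 35 (SD, n = 3 each). Its changes, -0.10 at day 27 and -0.09 at day 35, did not pass (adjusted p = 0.41 and 0.43, limma).

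Rpl22, a large subunit protein that is dispensable for most translation and needed for alpha-beta T cell development, was measured on both arrays. On array A its brightest probe set read 2910, 3207 and 3332 units in PBS samples, 2385, 2437 and 2267 at day 27, and 2668, 2267 and 2125 at day 35. The log2 change was -0.41 (adjusted p = 0.012) and -0.42 (adjusted p = 0.0052) by limma, again with no overlap, and the day 27 call was lost without day 27 replicate 3 or PBS replicate 3. A dimmer probe set gave -0.12 at day 35 and did not pass (adjusted p = 0.48). On array B Rpl22 went from 5629, 5770 and 5914 units in PBS samples to 3606, 3599 and 2749 at day 35, where it had changed by -0.81 on the log2 scale (adjusted p = 0.005). It was the 1 of 3 tested members called on array B at day 35, beside 3.59% of all probe sets there, and late against early, beside 1.66%. The late against early call (-0.43, adjusted p = 0.025) was lost in 6 of 15 omissions, of day 27 replicate 3, day 35 replicate 3, day 1 replicate 2, day 2 replicates 1 and 2 and day 3 replicate 1. On that array 0 members were called by limma at days 1, 2, 3 and 27 and between days 27 and 35, beside 0.00799%, 0.024%, 0.0799%, 0.328% and 0% of all probe sets. At an unadjusted p under 0.05 the counts of members were 0, 0, 1, 2 and 0. At day 27 the array B probe set of Rpl22 read 4323, 3916 and 3337 units, and its change of -0.59 did not pass (adjusted p = 0.11). With the replicate number as a block it passed (adjusted p = 0.0086, limma).

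Rpl37 and Rpl27a were called on fewer contrasts. Rpl37 read 1241, 1550 and 1333 units in PBS samples and 1063, 922.9 and 740.6 at day 35, with no overlap. On the log2 scale this was a change of -0.61 (SE 0.17, adjusted p = 0.033). That call was lost without any of 4 of the 6 arrays compared, PBS replicates 2 and 3 and day 35 replicates 2 and 3. Rpl27a fell at day 27 (-0.50, adjusted p = 0.032), a call kept in 1 of 6 omissions, and stood at -0.34 at day 35 (adjusted p = 0.11). Both fell late against early, by 0.43 and 0.34, and kept that call in all 15 omissions.

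Rpl11 and Rpl38 were called late against early alone among these contrasts. Rpl11, which binds the p53 regulator Mdm2 when ribosome assembly is disturbed, read 4693 ± 163 units in PBS samples and 3958 ± 499 at day 35 (SD, n = 3 each). Its late against early change was -0.23 (SE 0.05, adjusted p = 0.004). Rpl38, known for selective translation of Hox messages, changed by -0.24 in that contrast (adjusted p = 0.0049). Of 4 probe sets for Rpl13a, known from interferon-gamma-dependent translational silencing, 1 dim one fell (-0.17, adjusted p = 0.031), and 3 bright ones lay between -0.08 and -0.03 and did not pass. The dim one kept its call in 7 of 15 omissions and lost it without day 27 replicate 1 or 3, day 35 replicate 2 or 3, day 1 replicate 1 or 3, day 2 replicate 2 or day 3 replicate 2. Rpl4, one of the larger proteins, read 7141, 6385 and 6284 units in PBS samples and 7503, 7304 and 7275 at day 35. All its day 35 samples were above PBS, and the change of 0.16 did not pass (adjusted p = 0.097).

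**Figure D2:**
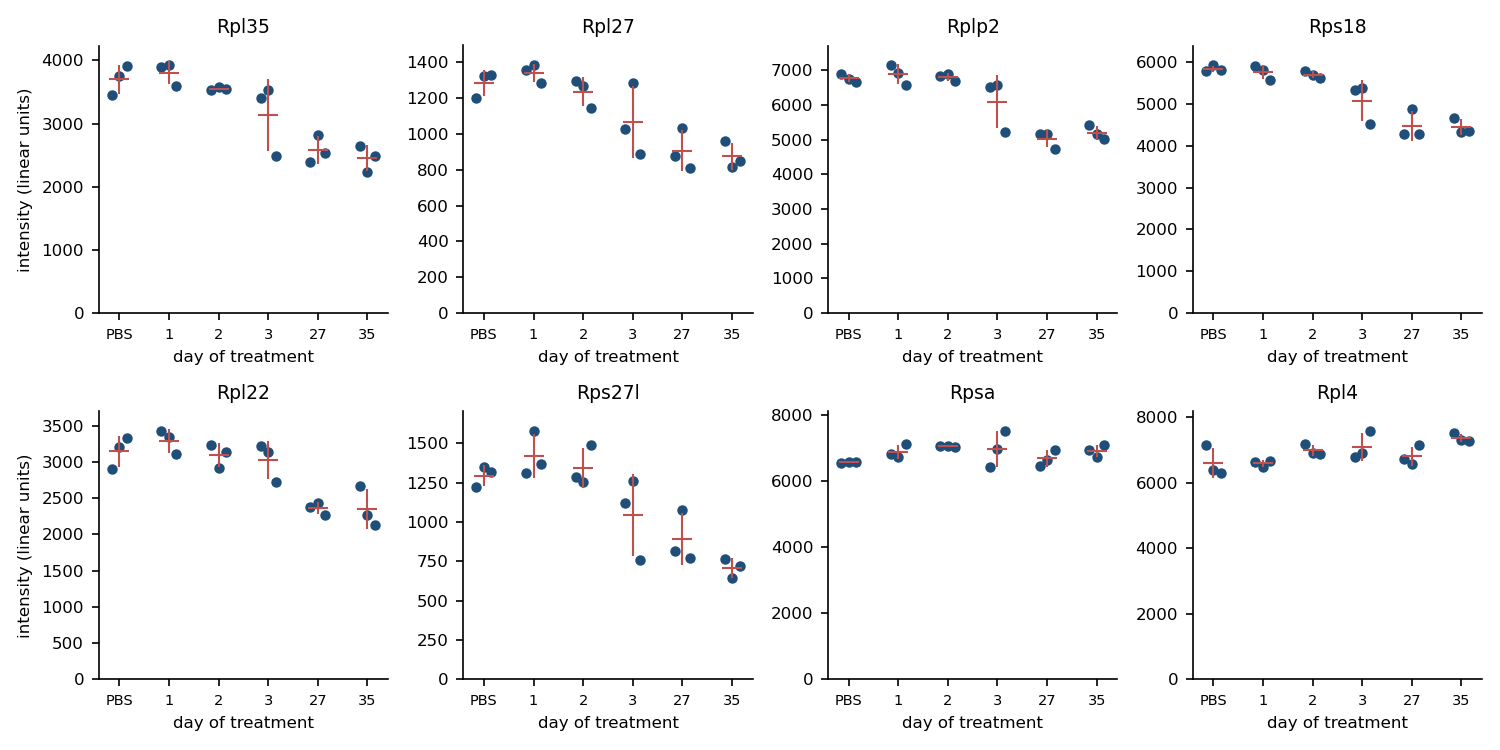
Intensity on array A (vertical axis, linear units) by day of treatment for 8 genes, with 3 samples per group as points and the mean ± SD as a cross. Rpl35, Rpl27, Rplp2, Rps18, Rpl22 and the homologue Rps27l were lower at days 27 and 35, while Rpsa and Rpl4 had no called change.

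Of the small subunit, 20 of 40 probe sets fell late against early, beside 10.4% of all probe sets. Rps18 lies in the head of that subunit. It read 5787, 5922 and 5809 units in PBS samples, 4270, 4879 and 4271 at day 27, and 4661, 4318 and 4352 at day 35. No late sample reached the PBS range, and the log2 change was -0.39 on both days (adjusted p = 0.0038 and 0.0021, limma). All omissions of 1 array kept both calls. The 3 tested Rps18 probe sets fell late against early, and the other 3 of its 6 on array A were too dim to be tested.

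Rps10 had 6 tested probe sets, of which 5 fell at day 35, by 0.24 to 0.34 on the log2 scale. One of these, with PBS values of 6046, 6015 and 6028 units, read 5491, 5015 and 4560 at day 35 (adjusted p = 0.022, limma). Its call was kept in 1 of 6 omissions, that of day 35 replicate 1, and those of the other 4 in 2 to 4 of 6. Each of the 5 was lost without day 35 replicate 2 or PBS replicate 3. The remaining probe set was dim, at 330.5 ± 54.4 units in PBS samples, and changed by 0.07 (adjusted p = 0.8). Rps9 and Rps20 showed the same kind of split. A bright Rps9 probe set went from 4984, 4796 and 5094 to 4395, 4153 and 3936 units at day 35 (-0.25, adjusted p = 0.0095, lost without PBS replicate 3), and a dim one from 356.1 ± 24.9 to 400.6 ± 14.4 (0.17, adjusted p = 0.22). For Rps20, 1 of 3 tested probe sets fell late against early (-0.23, adjusted p = 0.0045), and the dim one stood at 0.13 (adjusted p = 0.18).

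The small subunit proteins best known outside the ribosome did not pass. Rpsa, also called the laminin receptor, read 6542, 6560 and 6571 units in PBS samples, 6465, 6624 and 6950 at day 27, and 6937, 6726 and 7076 at day 35. The groups overlapped at day 27, the day 35 samples were all above PBS, and the day 35 change of 0.08 had an adjusted p of 0.43 by limma. Rps3, which lines the message entry channel, changed by -0.01 at day 35 on array A (SE 0.06, adjusted p = 0.96) from 6600 ± 371 units. Its array B probe sets changed by 0.07 (adjusted p = 0.73, limma) and -0.24 (adjusted p = 0.19, limma) at day 35 and did not pass. Rps6, the target of S6 kinases, changed by 0.07 (adjusted p = 0.65) from a dim 420.2 ± 26.4 units. Rps19, mutated in Diamond-Blackfan anaemia, stood at 4349, 4687 and 5129 units in PBS samples and at 4254, 3925 and 3910 at day 35, all below PBS, and its change of -0.23 did not pass (adjusted p = 0.13). Rpl3, Rpl5, Rpl10, Rplp1, Rps27 and Rps27a had no tested probe set of their own.

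**Figure D3:**
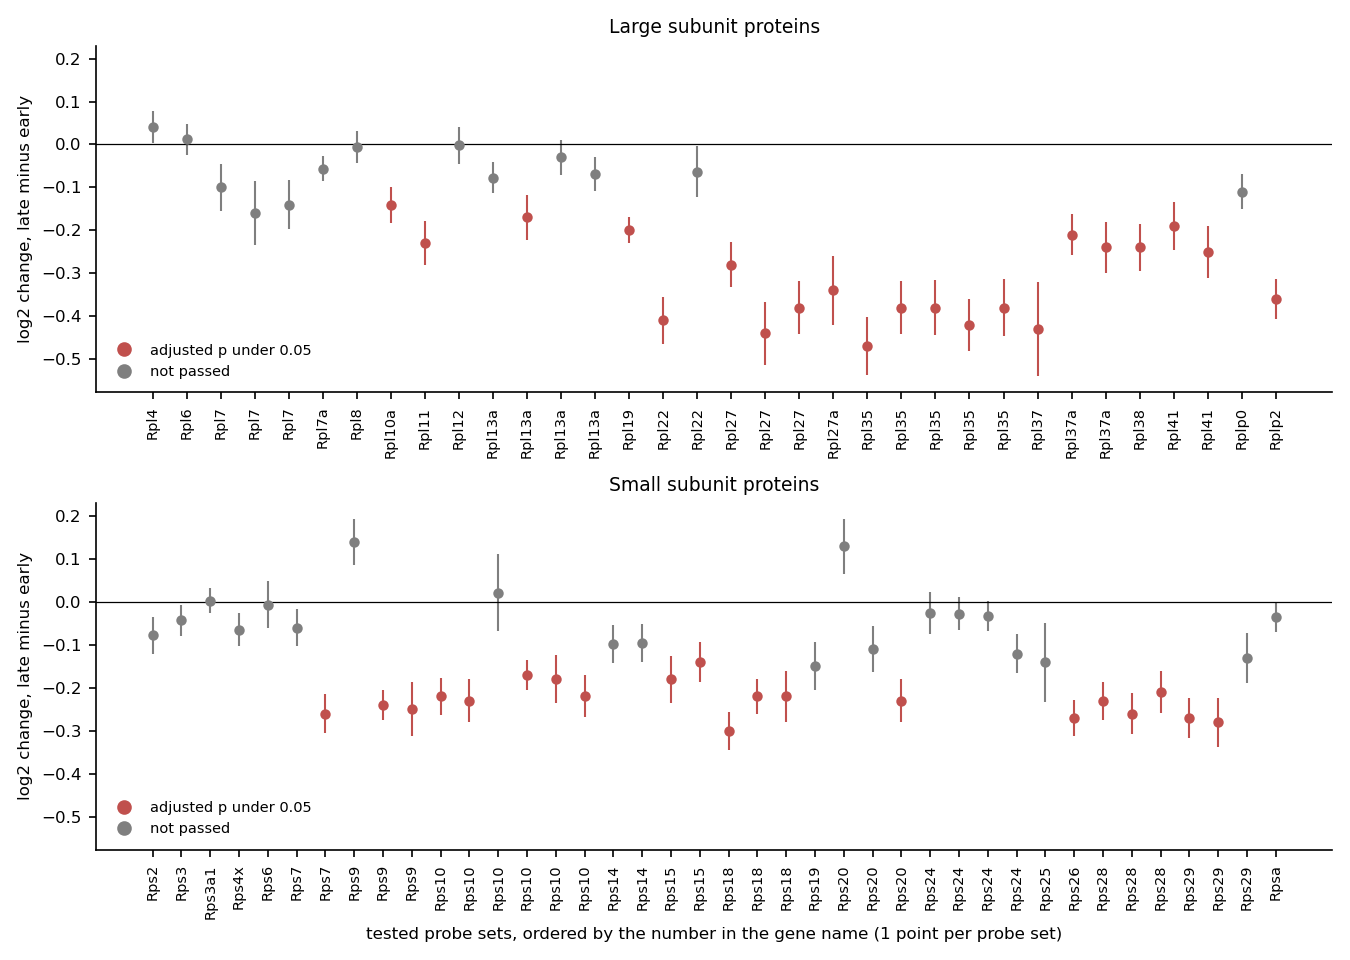
Log2 change of days 27 and 35 against days 1 to 3 (vertical axis, with SE bars) for the 74 tested members on array A, 1 point per probe set, ordered by the number in the gene name. Called falls, 41 in all, are red and run over most high-numbered members, while Rpl4, Rpl6, Rpl8, Rps3 and Rps3a1 lie near 0.

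Calls were spread unevenly over the members, and differences between members were not tested. Rpl19, Rpl22, Rpl27, Rpl35, Rplp2, Rps18, Rps26, Rps28 and Rps9 had a fall at day 27, at day 35 and late against early. No contrast called Rpl4, Rpl6, Rpl7, Rpl7a, Rpl8, Rpl12, Rplp0, Rps2, Rps3, Rps3a1, Rps4x, Rps6, Rps14, Rps19, Rps24, Rps25 or Rpsa, 17 genes whose 23 probe sets lay between -0.16 and 0.04 late against early. Among the uncalled genes, Rpl12, Rps6 and Rps25 each rest on 1 dim probe set, with PBS means of 270.7, 420.2 and 438.2 units. Of 17 genes with more than 1 tested probe set, 7 fell on every tested probe set, 7 on some and 3 on none.

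The counts differed with the number in the name, a division made after the values were seen and not tested. Among members numbered 2 to 10, 9 of 24 probe sets fell late against early, with a median of -0.09. Among those numbered 11 to 20, 9 of 18 fell, with a median of -0.15. Among those numbered 21 to 41, 22 of 29 fell, with a median of -0.26. Over all tested probe sets 10.4% fell in this contrast. Probe sets of 1 gene are not independent: Rps10 gave 5 of the 9 falls in the lowest range, and Rpl35 5 of the 22 in the highest. Brightness and probe set type differed too. Under a mean log2 signal of 10, 1 of 8 members fell, between 10 and 12, 11 of 14, and from 12 upward, 29 of 52, against 50 of 145 other probe sets that bright, of which 11 rose. Probe sets with the x suffix fell in 21 of 34 cases and those with no suffix, made for 1 transcript, in 5 of 13 (median -0.11).

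Probe sets that name a ribosomal protein together with other genes were not members, since they cannot be assigned. On array A 87 of 102 were tested. Of these 12 fell at day 27 (13.8%, beside 2.6% of all probe sets), 29 at day 35 (33.3%, beside 5.58%) and 56 late against early (64.4%, beside 10.4%), where 1 rose. On array B 5 of 8 fell at day 35, beside 2.88% of all probe sets there.

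Rps27l and Rpl22l1, homologues of members, were lower late as well. Rps27l, a paralogue of Rps27 and a p53 target, had 3 probe sets, and all fell. The one with the lowest change read 1247, 1262 and 1327 units in PBS samples, 706.8, 781.2 and 618.1 at day 27, and 660, 578.8 and 595.8 at day 35. Every late sample was below every PBS sample, and the day 35 mean was 0.478 of the PBS mean. Its log2 change was -0.87 at day 27 (SE 0.12, adjusted p = 0.00078) and -1.07 at day 35 (SE 0.12, adjusted p = 8.9e-05), and the others changed by -0.87 and -0.92 at day 35. At day 3 this probe set stood at -0.47 and did not pass (adjusted p = 0.12). With the Actb covariate its day 35 change was -1.06 (adjusted p = 0.059), and with the respiratory covariate -0.48 (adjusted p = 0.14).

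Rpl22l1, the paralogue of Rpl22, read 1531, 1568 and 1646 units in PBS samples and 1221, 1068 and 1021 at day 35. The groups did not overlap, and the log2 change was -0.52 (adjusted p = 0.015, limma), lost without PBS replicate 3, day 35 replicate 2 or day 35 replicate 3. Late against early it was -0.45 (adjusted p = 0.00079). Rpl7l1, named for its likeness to Rpl7, had 3 tested probe sets, which changed by 0.03 to 0.12 at day 35 and did not pass. Rps19bp1, which encodes a protein that binds Rps19 and is no homologue, fell on array B by 0.33 (adjusted p = 0.026), and no omission of a compared array kept that call. Rpl3l, Rpl39l, Rps4l and Rps15a-ps6 were not tested.

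Other parts of the translation machinery were compared through lists of genes, beside the 5.58% of all array A probe sets that fell at day 35 and the 10.4% that fell late against early. Of 27 probe sets for elongation factors and their partners, 5 fell at day 35 (18.5%) and 10 late against early (37%). Nap1l1, a histone chaperone whose message is of the TOP kind, changed by -0.45 at day 35 (adjusted p = 0.015) on 1 of 7 probe sets. Naca and Btf3, the partners in the complex that meets nascent chains, changed by -0.27 (adjusted p = 0.019) and -0.31 (adjusted p = 0.037). Of 61 probe sets for initiation factors and their binding proteins, 4 fell at day 35 (6.56%, near the share of all probe sets), and late against early 11 fell (18%) and 2 rose. Eif3k changed by -0.45 (adjusted p = 0.0011), Eif2s2 by -0.57 (adjusted p = 0.0024), Eif1b by -0.31 (adjusted p = 0.0064) and Eif4ebp2, a repressor of cap binding, by -0.75 (adjusted p = 8.3e-05), the last on 1 of 4 probe sets.

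Of 39 probe sets for ribosome assembly factors, 3 fell at day 35 (7.69%, near the 5.58% of all) and 11 late against early (28.2%, beside 10.4%). Nop58 and Nhp2, of the particles that modify ribosomal RNA, changed by -0.59 (adjusted p = 0.0047) and -0.44 (adjusted p = 0.0049), and Npm1 by -0.24 (adjusted p = 0.047). Of 20 probe sets for regulators of TOP messages, 0 were called at day 35 by limma, with 4 at an unadjusted p under 0.05, and 2 fell late against early (10%, close to the share of all).

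Mitochondrial ribosomal proteins, which serve the separate ribosomes of mitochondria, fell on 15 of 88 probe sets at day 35 (17%, median -0.13) and 32 late against early (36.4%, median -0.12). Small subunits of the respiratory chain, also short messages, fell on 70 of 105 at day 35 (66.7%, median -0.40) and 87 late against early (82.9%, median -0.33). These are array A counts, beside 5.58% and 10.4% of all probe sets. On array B the shares of all were 2.88% and 1.42%. There mitochondrial ribosomal proteins fell on 6 and 4 of 25 probe sets, with medians of -0.14 and -0.06. Small respiratory subunits fell on 2 of 6 in both contrasts, with medians of 0.11 and 0.08. The differences between these lists were not tested.

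**Figure D4:**
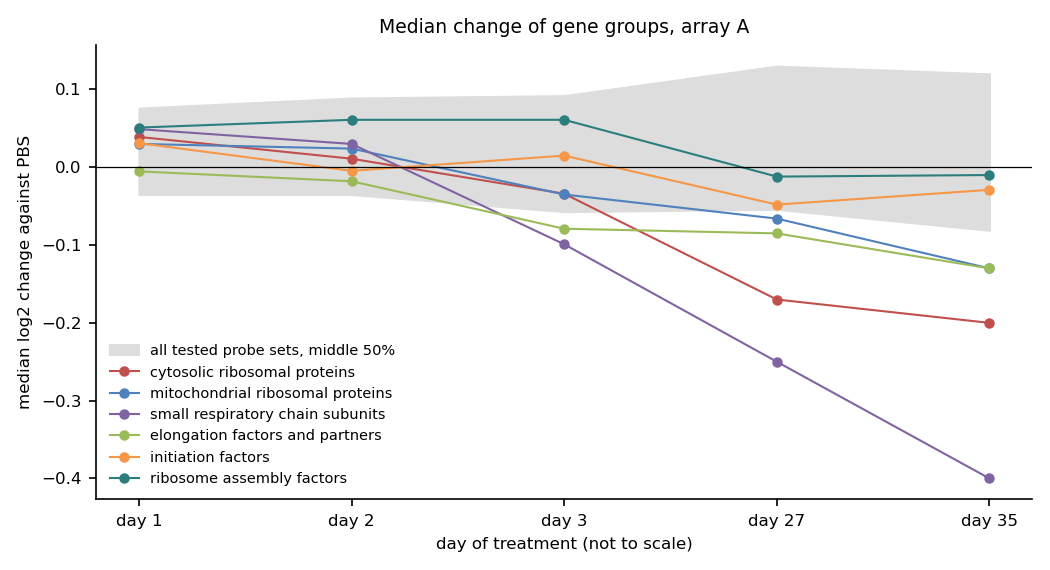
Median log2 change against PBS on array A (vertical axis) by day for 6 gene groups (lines), with the middle 50% of all tested probe sets shaded. Cytosolic ribosomal proteins reach -0.20 at day 35, mitochondrial ones -0.13 and small respiratory chain subunits -0.40.

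Markers of cell types that could alter the mixture were counted on array A at day 35, where 5.58% of all probe sets fell and 1.77% rose. Of 12 B cell probe sets 1 fell, and of 13 T cell probe sets 1 fell, with medians of -0.01 and -0.08. Of 11 plasma cell probe sets 3 rose, all for 1 gene, and of 11 fibroblast and matrix probe sets 7 rose, with a median of 0.30. Of 10 fat cell probe sets 4 fell, with a median of -0.40. Of 13 proliferation probe sets 0 were called by limma, with 3 at an unadjusted p under 0.05. On array B the 1 tested plasma cell probe set went the other way. It stood at -0.60 at day 35, not called, and fell late against early (-0.52), beside 1.42% of all probe sets there. On array A the mean of the fibroblast list relative to PBS was -0.05 to 0.07 in PBS samples and 0.31 to 0.38 at day 35. Its group averages were already 0.24, 0.34 and 0.35 at days 1, 2 and 3, and 0.24 at day 27. The mean of the fat cell list was -0.08 to 0.12 in PBS samples and -0.62 to -0.21 at day 35. Its group averages were -0.06, -0.06 and -0.12 at days 1, 2 and 3, and -0.10 at day 27. The part of such shifts in the fall of the ribosomal proteins was not tested.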

How the data were processed

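The authors deposited 1 linear intensity per probe set and array, per the files, and no label or header used here names the software or the scaling that produced it. Intensities were used without further scaling, raised to the 20th percentile of their table (123 units on array A, 76.6 on array B) and taken to log2. The arrays A and B were analysed apart, each in a limma 3.58.1 model (R 4.3.3, lmFit and eBayes with trend) of 6 groups without covariates. It held 12231 probe sets for array A and 12516 for array B. P-values are two-sided and adjusted by Benjamini-Hochberg within table and contrast, and called at 0.05. The number of arrays limits the precision. Changes are log2 differences of group means, treated minus PBS or late minus early.

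Gene symbols came from the platform annotation, and of 20380 probe sets with 1 symbol on array A, 20351 matched RefSeq by gene ID. The members and the gene lists were chosen with earlier results of these data known. Genes were named by size of called change (up to 6 a contrast), by role, as homologues, as members whose probe sets lay farthest apart at day 35, and for other lists by the smallest p at day 35 (up to 4). Other genes were named after seeing values. The fit was tested on simulated data. Of probe sets given a log2 fall of 0.25, 22.4% were called at day 35 on array A and 4.48% on array B. For a fall of 0.5 the shares were 83.6% and 55.2%. A small change that did not pass is therefore not shown to be absent. Protein sequences and lengths were not used here.

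Alternatives covered scaling, floor, filter, variance trend, weights for arrays, a block by replicate number, models restricted to the compared groups, 1 probe set a gene, and leaving out each array in turn. Fits with a covariate per array, either the Actb 3′ minus 5′ signal or the average over small respiratory subunits, and without the 3 arrays of lowest weight were added after seeing the data.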

Additional observations from a re-analysis of the deposited data

How the results depend on the processing

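Members named below are those tested on array A, and counts are of called members. The fit reported above gave 14 at day 27, 24 at day 35 and 41 late against early. For the alternative fits the share of all probe sets called is not given. A changed count need not be particular to the members. Quantile normalization gave medians of -0.0088 at day 2, -0.12 at day 27, -0.14 at day 35 and -0.11 late against early. Division by the array median gave -0.011 at day 2, and 27 calls with a median of -0.23 at day 27. It also moved the share of falls among all called probe sets from 81.7% to 93.9% at day 27, from 75.9% to 88.6% at day 35 and from 67.6% to 86% late against early. Without the filter the medians were -0.11 and -0.12 at days 27 and 35. Array weights gave 1, 42 and 40 calls at days 2, 27 and 35, the last 39 lower and 1 higher. Fitting only the groups compared gave 5 calls at day 27.

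With 1 probe set a gene (39 tested), the median at day 2 was 0.028, there were 8 calls and a median of -0.11 at day 27, 11 calls at day 35 and 20 late against early. With the 13 probe sets of no suffix the median at day 2 was 0.04, and calls and medians were 3 and -0.028, 2 and -0.089, and 5 and -0.11; fewer probe sets can be called by construction. Omitting single arrays gave 3 to 20 calls at day 27, 8 to 27 at day 35, 35 to 44 late against early and 0 at days 1, 2 and 3 and between days 27 and 35. Without the 3 arrays of lowest weight (day 3 replicate 3, day 27 replicate 2 and day 35 replicate 3) there were 29 calls at day 27, and the day 35 median was -0.15.

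The respiratory covariate gave 2 calls and a median of -0.063 at day 27, 0 and -0.014 at day 35, and 0 and -0.037 late against early. It turned Rpl37 to 0.13 at day 35 and 0.15 late against early, a Rpl35 probe set to 0.077 at day 35 and Rpl38 to 0.066 late against early. The Actb covariate gave 1 call and a median of -0.15 at day 27, 0 calls at day 35 and 2 late against early. The cause was not tested for the scaling, weights and covariates.

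Equal replicate numbers were not taken to pair the samples, since not every same-numbered pair correlated above 0.1 in its deviations. The arrays differed. On array A 18 of 45 such pairs correlated above 0.1 (median r 0.019, against 0.0041 over differently numbered pairs). On array B 34 of 45 did (median r 0.37, against -0.098). Same-numbered samples of array B were thus more alike than others, which the fit reported above does not take into account. With the replicate number as a block, Rplp2 changed by -0.38 at day 35 (adjusted p = 0.0014, limma), and no count or median of array A members moved beyond 1.5 times. The block added 8 calls among the probe sets and contrasts named, Rpl22 on array B at day 27 included (-0.59, adjusted p = 0.0086), and ended none.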
